A study of Mus musculus with 15 samples.

Results

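The Hox genes of the 4 mammalian clusters were followed across the endovascular progenitor (EVP), transit amplifying (TA) and definitive differentiated (D) populations. Members were all rows of the deposited table whose gene name was Hoxa, Hoxb, Hoxc or Hoxd followed by a number, which gave 39 of 53465 genes: 11 Hoxa, 10 Hoxb, 9 Hoxc and 9 Hoxd genes. The libraries were made from the 3 populations, with 5 libraries each (15 in all), after sorting from B16-F0 melanomas that had grown for 15 days in the skin of mice carrying GFP under the ubiquitous CAG promoter. All 3 populations were GFP+, lineage-negative and CD34+, and were separated as CD31lo VEGFR2lo (EVP), CD31int VEGFR2lo (TA) and CD31hi VEGFR2hi (D). GFP therefore marked cells of the host and not endothelium as such, and every group carried the same transgene and tumor; the mice were adults of 8 to 14 weeks. The labels do not say whether libraries came from separate animals, so p-values measure the spread between these libraries, which may be technical.

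Hox genes encode homeodomain transcription factors that give cells a position along the body axis and the limb. Within each cluster the genes lie in the order in which they are used from head to tail, paralogs with the same number in different clusters are the most alike, and the pattern laid down in the embryo is partly kept in adult fibroblasts and endothelial cells. Hox proteins bind DNA together with TALE homeodomain cofactors of the Pbx and Meis families, Polycomb and trithorax proteins keep the clusters silent or active, and retinoic acid and Cdx factors act on them in the embryo.

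The clusters lie on GRCm38 at chr6:52155590-52260880 (Hoxa, minus strand), chr11:96194316-96368256 (Hoxb), chr15:102921103-103036852 (Hoxc) and chr2:74668310-74765142 (Hoxd, as Hoxb and Hoxc on the plus strand). RefSeq windows around the start site (250 bases before and 50 after, GRCm38.p6) were found for 22 of the 39 members, in 24 windows. Both strands were searched for 6 short motifs. The letters TTTATG stand for the Cdx proteins and TGACAG for the Meis cofactors, while TGATTNAT is the joint motif of Pbx and Hox proteins. The general promoter elements were spelled TATAAA for the TATA box and CCAAT for the element of that name, and CCGGAAG was used for the Ets factors of endothelial cells. TTTATG was held by 5 of the 24 Hox windows (20.8%) and by 11.9% of the 32851 windows of all genes. It was found in 3 of the 6 windows of genes called higher in D and in 0 of the 4 windows of genes called higher in EVP, calls that are described below. Those 4 windows belong to 3 genes, Hoxa10, Hoxa11 and Hoxc4. No window was found for Hoxc5, Hoxc6, Hoxc8, Hoxc9, Hoxc10 and Hoxc11, also called higher in EVP. Hoxb5, Hoxb6 and Hoxb7, called higher in D, had none either, so most called Hoxc genes are absent from this count. CCAAT was held by 62.5% of the Hox windows and 37.4% of all windows, TATAAA by 16.7% and 13.6%, TGATTNAT by 8.33% and 3.22%, TGACAG by 8.33% and 19.2%, and CCGGAAG by 0 of the Hox windows and 8.86% of all windows. These are matches of letters and not sites of binding, and the Cdx letters overlap the TATA box of the opposite strand in all but their last letter.

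The 250 bases before the RefSeq start are shown for the 3 members higher in D that hold TTTATG on either strand, in capitals, and for 2 members higher in EVP that hold neither. They lie at chr6:52218574-52218823 (Hoxa7, minus), chr11:96281655-96281904 (Hoxb8, plus), chr2:74721728-74721977 (Hoxd4, plus), chr6:52245811-52246060 (Hoxa11, minus) and chr15:103034145-103034394 (Hoxc4, plus). The start lies 3281 bases inside the gene as deposited for Hoxa7, 10049 for Hoxd4 and 15461 for Hoxc4, and at the deposited start for Hoxb8 and Hoxa11.
Hoxa7: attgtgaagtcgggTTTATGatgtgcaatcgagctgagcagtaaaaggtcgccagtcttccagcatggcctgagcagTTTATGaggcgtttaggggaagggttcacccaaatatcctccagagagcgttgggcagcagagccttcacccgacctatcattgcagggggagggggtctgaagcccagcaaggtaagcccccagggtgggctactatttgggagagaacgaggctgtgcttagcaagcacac
Hoxb8: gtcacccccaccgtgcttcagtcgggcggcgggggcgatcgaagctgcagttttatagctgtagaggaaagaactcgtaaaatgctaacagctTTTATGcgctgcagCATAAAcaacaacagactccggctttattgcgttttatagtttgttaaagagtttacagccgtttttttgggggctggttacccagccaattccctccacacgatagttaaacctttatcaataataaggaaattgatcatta
Hoxd4: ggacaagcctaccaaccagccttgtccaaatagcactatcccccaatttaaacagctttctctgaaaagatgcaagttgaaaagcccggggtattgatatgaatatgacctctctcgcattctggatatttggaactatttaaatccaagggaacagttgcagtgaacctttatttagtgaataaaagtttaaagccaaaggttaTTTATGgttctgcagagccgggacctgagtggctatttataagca
Hoxa11: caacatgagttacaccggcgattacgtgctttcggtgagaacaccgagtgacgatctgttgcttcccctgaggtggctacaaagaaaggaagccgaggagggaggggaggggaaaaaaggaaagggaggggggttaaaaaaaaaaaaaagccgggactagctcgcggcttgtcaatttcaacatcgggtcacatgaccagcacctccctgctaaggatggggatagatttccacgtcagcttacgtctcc
Hoxc4: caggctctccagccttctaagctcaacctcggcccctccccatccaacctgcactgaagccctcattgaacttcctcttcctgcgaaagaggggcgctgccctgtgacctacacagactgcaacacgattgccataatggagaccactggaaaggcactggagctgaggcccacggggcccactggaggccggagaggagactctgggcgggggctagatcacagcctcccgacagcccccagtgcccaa
Hoxa7 held the letters at 2 places, 236 and 173 bases before the start. Hoxb8 held them at 2 places, 157 and 143 bases before it, and Hoxd4 at 1 place, 45 bases before it. The members shown were picked by these letters, so their contrast is no result. The windows of Hoxd8, Hoxd9 and Hoxd10, also called higher in D, did not hold them. Hoxd3 and Hoxd11, which were not tested for expression, had a window that did.

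The populations differed in markers of other cell types, and these values stand beside every Hox result. The summed normalized counts of 10 fibroblast markers were 847250 to 1505580 in EVP, 192799 to 611636 in TA and 1167 to 4252 in D, and 10 of 10 were higher in EVP than in D. The sum of 10 pan-endothelial markers was 2385 to 4279 in EVP, 5979 to 72865 in TA and 103119 to 163172 in D, and 9 of 10 were higher in D than in EVP; Tek was not called. Of 8 melanoma markers 8 were higher in TA than in D, with sums of 71717 to 182314 in TA, 19137 to 50322 in D and 30759 to 70218 in EVP. Of 6 keratinocyte markers 6 were higher in TA than in D, with sums of 1541 to 70212 and 73.1 to 1970, and 3 of 6 were higher in EVP than in D. Between EVP and D, 4 of 10 mural markers were higher in EVP and 3 in D, of 8 leukocyte markers 0 and 1, and of 6 lymphatic markers 1 and 3. Between TA and D, 6 of 10 mural and 5 of 8 leukocyte markers were higher in TA and 0 in D, with mural sums of 13684 to 163405 in TA and 14525 to 27207 in D and leukocyte sums of 10168 to 132446 and 7688 to 13347. Over all genes tested (limma, adjusted p under 0.05) 11.6% were higher in EVP than in D and 7.46% higher in D. Between TA and D 8.21% were higher in TA and 4.31% in D. Between EVP and TA 1.56% were higher in EVP and 1.94% in TA. In that comparison 6 of 10 fibroblast markers were higher in EVP and 0 in TA. Higher in TA were 8 of 10 pan-endothelial, 3 of 10 mural, 2 of 8 leukocyte and 3 of 8 melanoma markers, with 0 of these higher in EVP. Of 6 lymphatic markers 1 was higher in EVP and 1 in TA, and of 6 keratinocyte markers 0 were called. No marker of these lists was at 0 in all libraries of a population. The part of these cell types in the Hox results was not tested, and fewer cells of a type and less RNA per cell cannot be told apart in bulk samples. Between 5394356 and 26513073 reads were counted on genes. The mean of 1106 olfactory receptor genes, which these cells are not known to use, was 39.9 normalized counts per kb of exon in EVP replicate 1, 9.05 in TA replicate 1, 6.57 in D replicate 1, 3.77 in TA replicate 3 and at most 1.48 in the others. Scaled to exon length, 33 of the 39 members in EVP replicate 1 were at or below that background, against 5 to 20 in the other libraries.

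Detection came first. A member was called detected in a library with more than 3 reads, a limit that covers counting error only. In all 5 libraries, 19 members were detected in EVP, 19 in TA and 17 in D, and 9 members were detected in all 15 libraries. These counts depend on replicate 1 of each population, where the background is high. With more than 3 reads and a value above the olfactory receptor background of the library, 6 members remained in EVP (Hoxa7, Hoxa10, Hoxb7, Hoxc8, Hoxc9 and Hoxc10), 14 in TA and 16 in D, and 3 in all 15 libraries. In replicates 2 to 5 alone this stricter limit left 22 members in EVP, 18 in TA and 17 in D. The clusters differed in the count by reads. Of the 9 Hoxc genes 7 were detected in all 5 EVP libraries, 6 in all 5 TA libraries and 0 in all 5 D libraries. Above background the Hoxc counts were 3, 3 and 0 in all 5 libraries, and 7, 7 and 0 in replicates 2 to 5. In EVP replicate 1 Hoxc4, Hoxc5, Hoxc6 and Hoxc11, and in TA replicate 1 Hoxc4, Hoxc5, Hoxc8, Hoxc9 and Hoxc11, were at or below background. Of the 9 Hoxd genes 1 was detected in all 5 libraries of EVP, 1 of TA and 4 of D. Hoxb had 4, 5 and 7 such members of 10, and Hoxa 7, 7 and 6 of 11. Signal was sparse for 8 members. Hoxa13, Hoxb13, Hoxc12, Hoxd1, Hoxd3, Hoxd11, Hoxd12 and Hoxd13, mostly of the tail end, had a mean under 5 normalized counts and were not tested, with a highest single value of 22.0 (Hoxc12 in TA replicate 2). Hoxd1, Hoxd3 and Hoxd12 never exceeded 3 reads in any library.

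**Figure D1:**
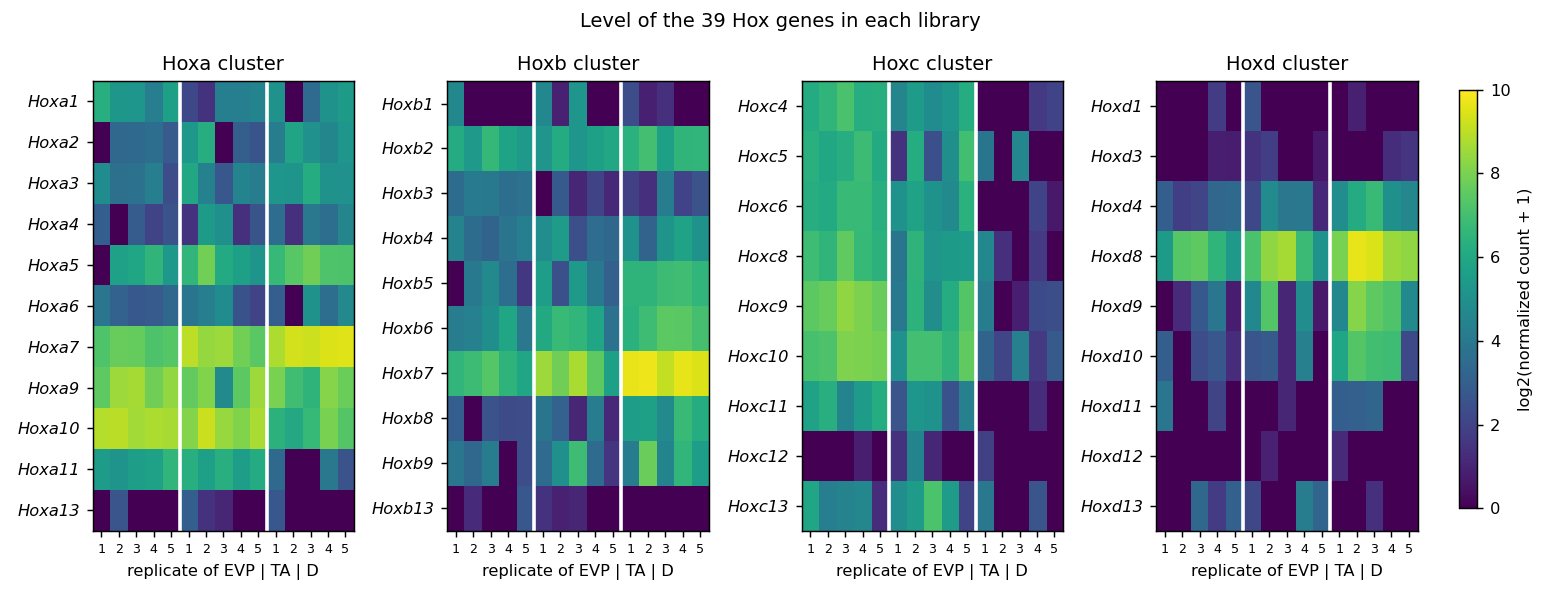
Heat map of log2(normalized count + 1) of the 39 members (rows, by cluster and paralog number) in the 15 libraries (columns, replicates 1 to 5 of EVP, TA and D between white lines). Hoxc4 to Hoxc11 are bright in EVP and dark in D, while Hoxb5 to Hoxb9 and Hoxd4 to Hoxd10 are brightest in D.

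The members with the highest levels per kb of exon differed between EVP and D, and those of TA were shared with one or the other. In EVP Hoxa10 led with 134 ± 13.7 normalized counts per kb (SD, n = 5), followed by Hoxc10 at 110 ± 33.3 and Hoxc9 at 96.3 ± 24.2. In TA the first 3 were Hoxb7 at 162 ± 97.2, Hoxa10 at 118 ± 39.5 and Hoxa7 at 113 ± 45.0, which lie within their spread. In D Hoxb7 led with 482 ± 83.5, ahead of Hoxa7 at 215 ± 40.2 and Hoxd8 at 175 ± 86.4. The summed Hox level was 776 to 1079 per kb in EVP, 674 to 1306 in TA and 1183 to 1714 in D. The share of Hoxc in that sum was 37.3% to 46.3% in EVP, 7.50% to 41.8% in TA and 0.133% to 2.84% in D. The share of Hoxb ran the other way, at 9.26% to 16.2% in EVP, 9.16% to 36.7% in TA and 36.7% to 56.8% in D. Hoxd took 2.85% to 7.11% in EVP, 2.36% to 15.9% in TA and 10.8% to 31.1% in D. Hoxa, at 32.0% to 42.9%, 33.1% to 48.0% and 22.8% to 39.2%, overlapped between all 3 populations.

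**Figure D2:**
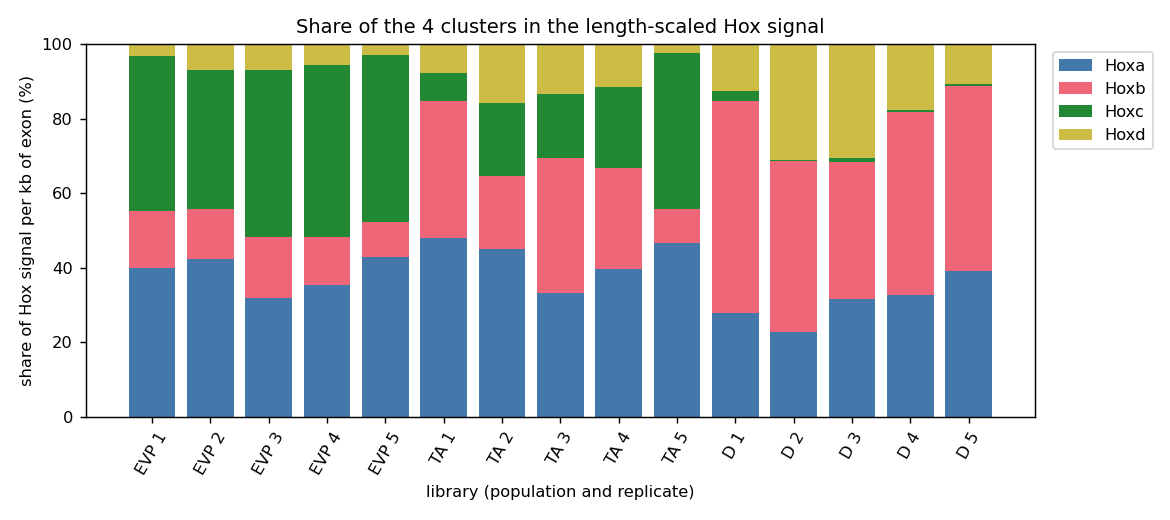
Stacked bars of the share (%) of each cluster in the summed Hox level per kb of exon in each library. Hoxc takes over 37% in each EVP library and under 3% in each D library, and TA replicates 1 and 5 mark the ends of the TA range at 7.50% and 41.8%.

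The comparison of EVP with D asks how the progenitor-labelled and the differentiated population differ. Of 31 members tested 18 passed the threshold (limma, adjusted p under 0.05), 9 higher in EVP and 9 higher in D, whereas 19.0% of the 25549 genes tested passed, 11.6% higher in EVP and 7.46% higher in D. The libraries of the 2 populations did not overlap for 21 members, against 17.7% of all genes tested. Both criteria were met by 17 members, and the share of all genes that met both was not computed. Without replicate 1 of every population 21 were called, the 18 among them, beside 25.8% of all genes tested in that fit. The direction followed the cluster. Hoxc had 7 of 8 tested members higher in EVP and none higher in D, Hoxb had 4 of 9 and Hoxd 4 of 4 higher in D and none higher in EVP, and Hoxa had 2 higher in EVP and 1 higher in D of 10. The median log2 fold change (EVP minus D) was 5.33 over the tested Hoxc genes, -2.37 over Hoxb, -3.38 over Hoxd and -0.69 over Hoxa, beside 0.46 over all genes tested. After quantile normalization the median of all genes was -0.05 and the split of called members was 7 higher in EVP and 12 higher in D. In that fit 15.3% of all genes were called.

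**Figure D3:**
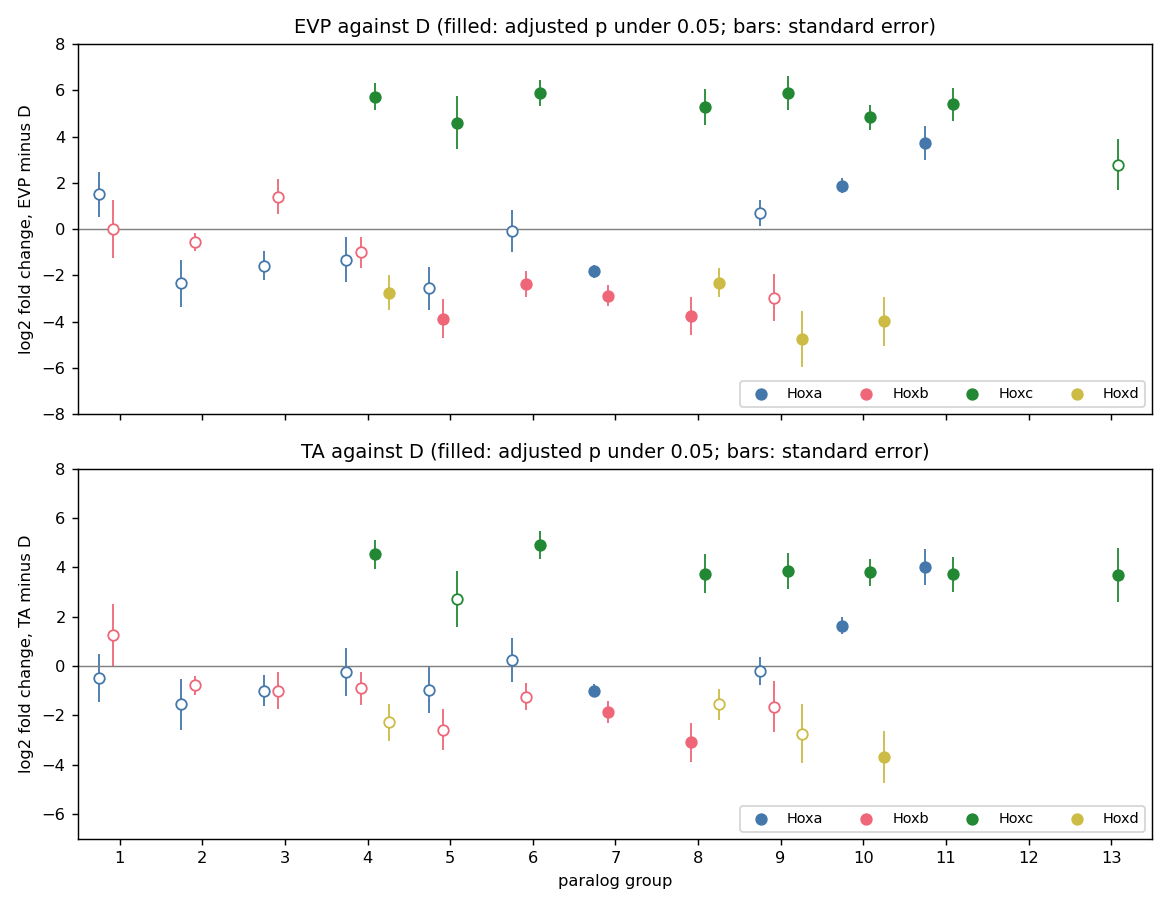
Log2 fold change of each tested member with its standard error, by paralog group on the x axis and cluster by color, for EVP minus D (top) and TA minus D (bottom); filled points had an adjusted p under 0.05 in limma. Hoxc points lie above 0 at every paralog number, and the filled Hoxb and Hoxd points all lie below 0.

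Paralogs with the same number were called in opposite directions in 6 groups. In group 4 Hoxc4 was higher in EVP and Hoxd4 in D; in group 5 the pair was Hoxc5 and Hoxb5, in group 6 Hoxc6 and Hoxb6, and in group 9 Hoxc9 and Hoxd9. In group 8 Hoxc8 was higher in EVP and Hoxb8 and Hoxd8 in D, and in group 10 Hoxa10 and Hoxc10 were higher in EVP and Hoxd10 in D. In group 7 both members, Hoxa7 and Hoxb7, were higher in D, and in group 11 both tested members, Hoxa11 and Hoxc11, were higher in EVP. No member of groups 1 to 3, the head end of the clusters, was called.

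Among the Hoxc genes, Hoxc9, a thoracic to lumbar paralog, had 179, 204, 324, 261 and 202 normalized counts in the 5 EVP libraries, 15.5, 87.9, 30.1, 71.3 and 158 in TA and 17.8, 0, 0.782, 3.76 and 4.23 in D. The 5 EVP libraries lay above all others, and only TA replicate 1 fell below the highest D library. Its log2 fold change (EVP minus D) was 5.90 (SE 0.73, adjusted p = 1.09e-05 in limma). Hoxc10, known for its use in the hindlimb and lumbar region, read 137, 145, 270, 257 and 238 in EVP, 32.7, 128, 127, 90.1 and 190 in TA and 8.24, 3.27, 19.5, 2.25 and 6.04 in D. Here EVP and TA overlapped and D lay below both. Its log2 fold change was 4.82 (SE 0.55, adjusted p = 4.13e-06 in limma).

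Hoxc4 and Hoxc6, of the cervical and upper thoracic end, were near absent from D. Hoxc6 had 73.7, 67.9, 107, 106 and 78.8 normalized counts in EVP, 34.5, 53.6, 33.5, 26.6 and 83.4 in TA and 0, 0, 0, 3 and 0.604 in D, which rests on 5 reads over the 5 D libraries. Its log2 fold change of 5.89 (SE 0.56) had the smallest adjusted p of the members, 6.12e-07 in limma. Hoxc4 had 70.2, 91.4, 137, 74.3 and 75.4 in EVP, 22.4, 44.8, 27.9, 36.8 and 71.6 in TA and 0, 0, 0, 2.25 and 3.02 in D, for 5.72 (SE 0.59, adjusted p = 1.37e-06 in limma). For both genes the D libraries lay below all EVP and all TA libraries.

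Hoxc8 read 119, 91.4, 187, 102 and 85.7 in EVP, 13.8, 90.5, 35.7, 42.3 and 43.6 in TA and 24.7, 1.63, 0, 2.25 and 0 in D, where only replicate 1, the D library with the highest olfactory receptor background, exceeded 3 counts (log2 fold change 5.27, SE 0.78, adjusted p = 7.22e-05 in limma). Hoxc11 read 52.7, 78.4, 22.1, 44.8 and 71.9 in EVP, 5.17, 36.9, 34.6, 4.70 and 19.3 in TA and 0, 0, 0, 1.5 and 0 in D. Its log2 fold change was 5.39 (SE 0.72, adjusted p = 2.45e-05 in limma). The whole D signal of Hoxc11 was 2 reads of replicate 4, and the ratio of EVP to D was 164 with a 95% counting interval of 44.9 to 1361. Hoxc5 read 80.8, 62.7, 73.6, 113 and 68.5 in EVP, 1.72, 72.1, 4.46, 30.6 and 126 in TA and 13.7, 0, 23.4, 0 and 0 in D. It split the TA libraries more than any other called Hoxc gene, from 1.72 in replicate 1 to 126 in replicate 5, and its log2 fold change of 4.61 (SE 1.12, adjusted p = 0.00639 in limma) was lost in edgeR. Hoxc13, at the tail end of the cluster, was not called at 2.78 (SE 1.1, adjusted p = 0.0946 in limma).

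In Hoxa the change of direction fell between Hoxa7 and Hoxa10. Hoxa10, used in the uterus, limb and lumbar region, had 474, 494, 386, 432 and 407 normalized counts in EVP, 281, 587, 354, 275 and 428 in TA and 85.1, 65.3, 102, 251 and 158 in D. The D libraries lay below all others, and the log2 fold change was 1.88 (SE 0.33, adjusted p = 0.000348 in limma). Hoxa11 read 45.6, 35.3, 46.6, 51.2 and 94.0 in EVP, 79.3, 49.2, 79.2, 47.0 and 69.7 in TA and 9.61, 0, 0, 15 and 4.83 in D, again with D below both (3.72, SE 0.73, adjusted p = 0.00113 in limma). Of its exon bases 35.0% are shared with the antisense gene Hoxa11os. The study's methods describe Smart-Seq2 and Nextera XT libraries and name no strand-specific step, so reads of these genes may not be told apart there. The strand setting of the counting is not given in the sources used here.

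Hoxa7 went the other way, with 151, 202, 200, 149 and 162 in EVP, 508, 341, 372, 236 and 173 in TA and 435, 636, 596, 701 and 729 in D. EVP lay below all D libraries and only TA replicate 1 reached the D range (log2 fold change -1.83, SE 0.27, adjusted p = 7.65e-05 in limma). Of its exon bases 20.4% are shared with the noncoding gene Hoxaas3. Hoxa9, between these 2 in the cluster, read 183 to 397 in EVP and 89.1 to 289 in D and was not called (0.71, SE 0.56, adjusted p = 0.507 in limma). Hoxa5 was 48.5 ± 33.1 in EVP and 159 ± 46.1 in D and missed the threshold (-2.57, adjusted p = 0.0654 in limma), although its libraries did not overlap.

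**Figure D4:**
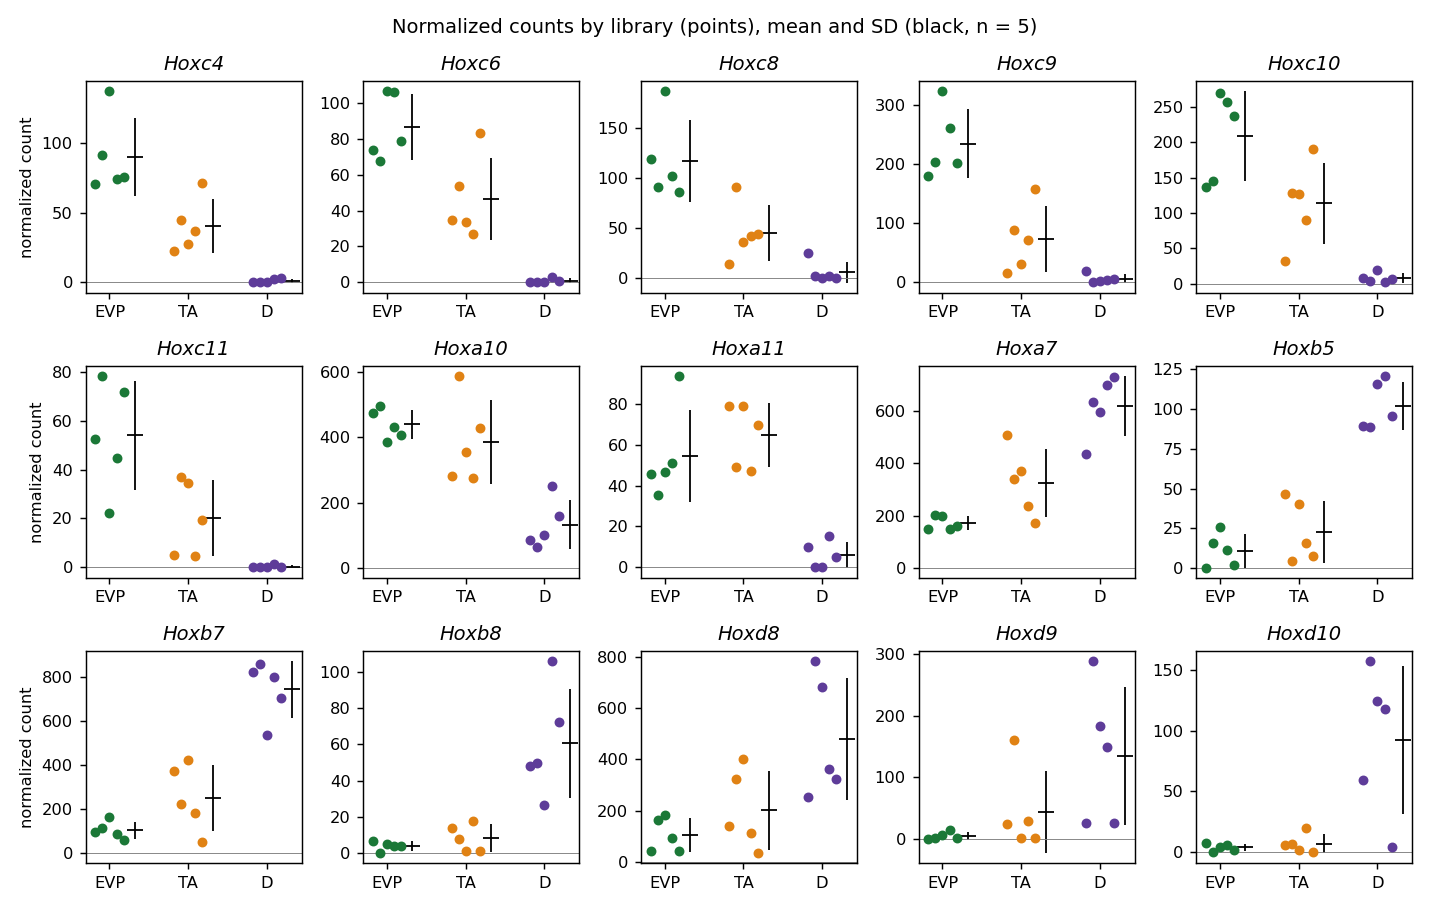
Normalized counts of 15 called members in each library (points, replicates 1 to 5 from left to right within a population), with mean and SD in black (n = 5), each panel on its own linear axis. In the first 8 panels D is lower than EVP and in the last 7 it is higher, and TA libraries spread between the others in most panels.

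The Hoxb genes called were neighbors, Hoxb5 to Hoxb8. Hoxb7, the member with the highest level per kb in D, had 94.8, 116, 164, 88.7 and 58.8 normalized counts in EVP, 372, 224, 422, 181 and 49.8 in TA and 822, 858, 538, 800 and 703 in D. All D libraries lay above all others, and TA replicate 5 was below every EVP library. The log2 fold change was -2.88 (SE 0.46, adjusted p = 0.000134 in limma). Hoxb5, known to activate Kdr, the gene of VEGFR2, read 0, 15.7, 26.2, 11.2 and 2.07 in EVP, 46.5, 4.40, 40.2, 15.7 and 7.47 in TA and 89.2, 89.0, 116, 121 and 95.5 in D. The 5 D libraries stood apart from the other 10 (-3.86, SE 0.84, adjusted p = 0.00272 in limma).

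Hoxb6 read 17.6, 19.6, 30.3, 59.1 and 14.5 in EVP, 65.5, 105, 94.9, 57.2 and 12.5 in TA and 83.7, 117, 177, 173 and 131 in D (-2.37, SE 0.55, adjusted p = 0.00431 in limma). Hoxb8 read 7.02, 0, 4.91, 4 and 4.15 in EVP, 13.8, 7.91, 1.12, 18.0 and 1.25 in TA and 48.1, 49.8, 26.6, 106 and 72.5 in D (-3.75, SE 0.80, adjusted p = 0.00237 in limma). For both genes all D libraries exceeded all EVP libraries, and for Hoxb8 they exceeded all TA libraries as well. Hoxb9 spread widely, from 17.8 to 208 in D and 0 to 17.2 in EVP, and missed the threshold (-2.97, SE 1.02, adjusted p = 0.0510 in limma). Hoxb2, Hoxb3, Hoxb4 and Hoxb1 of the head end had log2 fold changes from -1 to 1.40 and were not called.

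All 4 tested Hoxd genes were higher in D in limma. Hoxd8 had 42.1, 163, 184, 93.5 and 41.5 in EVP, 140, 324, 401, 112 and 33.6 in TA and 253, 784, 683, 361 and 322 in D, where the lowest D library exceeded the highest EVP library (-2.31, SE 0.61, adjusted p = 0.0111 in limma). This call was lost after background subtraction. Hoxd9 read 0, 1.31, 5.73, 14.4 and 0.691 in EVP, 24.1, 161, 1.12, 29.0 and 0.623 in TA and 24.7, 289, 184, 149 and 26.0 in D (-4.74, SE 1.20, adjusted p = 0.00845 in limma). Every D library exceeded every EVP library for Hoxd9, but D replicates 1 and 5 were below TA replicates 2 and 4.

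Hoxd10, which lowers the motility of endothelial cells in culture, read 7.02, 0, 4.09, 5.59 and 1.38 in EVP, 5.17, 6.15, 1.12, 19.6 and 0 in TA and 59.0, 158, 124, 118 and 3.63 in D. Replicate 5 lay within the EVP range, so the populations overlapped although the test passed (-3.99, SE 1.05, adjusted p = 0.0110 in limma). Hoxd4 read 7.02, 2.61, 3.27, 8.79 and 9.68 in EVP, 3.45, 27.3, 14.5, 14.9 and 1.25 in TA and 28.8, 70.2, 107, 31.6 and 23.6 in D (-2.76, SE 0.75, adjusted p = 0.0141 in limma). The populations did not overlap for Hoxd4, but 52.3% of its exon bases are shared with neighboring genes, among them Hoxd3 on the same strand, and the call was lost without D replicate 3.

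EVP and TA were compared to ask how the first step of the labelled order differs. Of 31 members 0 passed the threshold in limma, while 3.50% of all genes tested did, 1.56% higher in EVP and 1.94% higher in TA. At an unadjusted p under 0.05 in limma there were 5 of 31 members, beside 3962 of the 25549 genes tested. This count of members is near the share of all genes. The 5 were Hoxb3, Hoxc9 and Hoxc11 with a higher mean in EVP, and Hoxa7 and Hoxb7 with a higher mean in TA. edgeR called 0 members (2.6% of all genes) and had 5 at the unadjusted threshold, beside 3539 of 25549 genes. DESeq2 called 2, Hoxa7 and Hoxb7 (7.44% of all genes). Libraries did not overlap for 2 members, beside 4.29% of all genes. Hoxc9 was 234 ± 58.7 in EVP and 72.5 ± 55.9 in TA, a log2 fold change of 2.05 with a 95% interval that runs from 0.50 to 3.60. Hoxb3, with 52.9% of its exon bases shared with the antisense gene Hoxb3os, read 10.5, 17.0, 15.5, 11.2 and 12.4 in EVP and 0, 6.15, 1.12, 3.13 and 1.25 in TA (2.39, SE 0.76, adjusted p = 0.0997 in limma). A missed threshold does not show that the populations were alike: TA libraries varied widely, and for Hoxc genes from 68.1 (replicate 1) to 294 (replicate 5) summed normalized counts per kb.

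TA and D were compared to ask how the later step differs, with the same D libraries as above. Of 31 members 13 passed (limma), against 12.5% of all genes, 9 higher in TA (8.21% of all genes) and 4 higher in D (4.31%). Libraries did not overlap for 9 members, beside 9.25% of all genes. The members higher in TA were Hoxa10, Hoxa11 and 7 of 8 tested Hoxc genes, and those higher in D were Hoxa7, Hoxb7, Hoxb8 and Hoxd10. The largest log2 fold changes (TA minus D) were 4.91 for Hoxc6 (SE 0.56, adjusted p = 1.31e-05) and 4.53 for Hoxc4 (SE 0.59, adjusted p = 5.38e-05), both in limma. Hoxc13 was called here (3.70, adjusted p = 0.0336 in limma), with 29.3, 45.7, 142, 43.9 and 3.11 in TA and 15.1, 0, 0, 5.26 and 0 in D, and TA replicate 5 overlapped D. The call of Hoxc13 was lost in 12 of 29 alternatives, among them edgeR and 6 fits that left out 1 library. Hoxc5 was not called (2.71, adjusted p = 0.142 in limma). Most Hoxc calls of this comparison depend on the processing. After quantile normalization 7 members were called, 3 higher in TA and 4 higher in D, and Hoxc6 was the 1 Hoxc gene among them. After subtraction of the olfactory receptor background 7 were called, 4 higher in TA and 3 higher in D, with Hoxc6 and Hoxc10 as the Hoxc genes. Of all genes 8.29% were called after quantile normalization and 8.83% after this subtraction. Without replicate 1 of every population 15 were called, the 13 among them, beside 22.6% of all genes. Without D replicate 4 Hoxa7, Hoxb8 and Hoxd10 were no longer called and 10 members passed, beside 9.25% of all genes.

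For the 18 members called between EVP and D the mean of TA on the log2 scale lay between the other means in 17. These members were chosen because EVP and D differed, which by itself favors a TA mean in between. No share among all called genes is given for comparison, so this count does not show that TA is an intermediate state. With EVP set to 0 and D to 1 the median position of TA was 0.3 and ran from -0.078 (Hoxa11) to 0.470 (Hoxb6). Single TA libraries did not share 1 position. TA replicate 5, which had the lowest pan-endothelial sum of the TA libraries (5979) and the highest fibroblast sum (611636), had the highest Hoxc share, 41.8%, and the lowest Hoxb share, 9.16%. TA replicate 1, with the highest pan-endothelial sum (72865) and the lowest fibroblast sum (192799), had the lowest Hoxc share, 7.50%, and the highest Hoxb share, 36.7%. The part of cell mixture in these values was not tested.

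Genes that work with Hox proteins were read from the same fit. In that fit 19.0% of all genes were called between EVP and D, 11.6% higher in EVP and 7.46% higher in D. Of 9 TALE cofactors 6 were higher in EVP than in D and 1, Pbx3 (log2 fold change -1.30), was higher in D. Pknox2 was 462 in EVP, 195 in TA and 4.76 in D on average (log2 fold change 7.13), Meis3 592, 198 and 27.7 (4.57), Meis1 300, 211 and 22.2 (4.10) and Meis2 527, 319 and 38.9 (3.72). None of the 9 was called between EVP and TA (3.50% of all genes), and 6 were higher in TA than in D (8.21% of all genes). Of 17 Polycomb genes 3 were called, a count near the 19.0% of all genes. These were Cbx7 (1.70), Cbx6 (1.06) and Phc3 (0.85), all higher in EVP. Of 8 trithorax genes 0 were called between EVP and D. Of 11 tested retinoic acid pathway genes 5 were higher in EVP and 0 in D, led by the retinaldehyde dehydrogenases Aldh1a1 (10.63), Aldh1a3 (7.60) and Aldh1a2 (5.22) and the retinoic acid hydroxylase Cyp26b1 (3.68). Cdx4, the only Cdx gene tested, was not called. It read 116 in EVP replicate 1, 86.2 in TA replicate 1 and 13.7 in D replicate 1, the libraries with the highest olfactory receptor background of their population, and at most 10.0 in any other library.

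Among 17 other transcription factors of limb and body patterning 9 were higher in EVP and 2, the mesodermal factors Meox1 (-1.96) and Meox2 (-2.43), were higher in D. Over all genes 11.6% were higher in EVP and 7.46% in D. Prrx1, a limb mesenchyme factor, averaged 5910 in EVP, 2361 in TA and 38.6 in D (8.12). Emx2 and En1, the latter a mark of the dorsal skin lineage, averaged 253 and 199 in EVP and 82.8 and 51.5 in TA and had no read in any D library.

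Genes inside the clusters and the genes that flank them were read from the same fit, in which 19.0% of all genes were called between EVP and D. Inside the clusters 46 other genes are annotated and 13 could be tested, of which 3 were called. Hotair, transcribed within the Hoxc cluster, averaged 15.3 in EVP, 10.0 in TA and 0 in D with no read in any D library. It was called higher in EVP than in D (adjusted p = 0.0245 in limma). Its values were low and ran from 0 to 24.6 in EVP and from 0 to 22.4 in TA. They were not set against the olfactory receptor background of each library here. Hoxa11os was also higher in EVP (2.84) and Hoxd3os1 higher in D (-1.55), each in the direction of a called Hox gene that overlaps it. Of the exon bases of Hoxa11 35.0% are shared with Hoxa11os. Of those of Hoxd4 52.3% are shared with neighboring genes, among them Hoxd3os1. The values of these genes may therefore not be independent of those Hox genes, and Hoxd3 was not tested. Of the 3 nearest protein-coding genes on each side of each cluster, 24 in all, 20 could be tested and 2 were called, Lnpk beside Hoxd higher in EVP (1.84) and Snx11 beside Hoxb higher in D (-0.93). All 6 flanking genes of Hoxc were tested and 0 were called between EVP and D. The difference between these genes and the Hox genes was not tested.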

How the data were processed

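The data were 15 Smart-Seq2 RNA sequencing libraries, 5 of each population. According to the submitters' notes and the study's methods, the authors aligned reads with STAR 2.5.3a to GRCm38 with Ensembl annotation, counted reads on genes with HTSeq-count and scaled them in DESeq2 1.10.1; the strand setting is not given in the sources used here. The deposited values are a signal: the count of each gene over the size factor of its library. Tables of the authors' own comparisons, which hold fold changes on the log2 scale, test scores and p-values deposited by the authors, were not used.

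Whole reads were recovered from the normalized counts by dividing by the smallest step of each library, and 100% of the values came out whole within 0.01 reads. Log2(normalized count + 1) of the 25549 genes whose mean reached 5 was fitted with limma 3.58.1 in R 4.3.3 (all 15 libraries, trend, two-sided, Benjamini-Hochberg over all genes tested, threshold 0.05). edgeR 4.0.16 and DESeq2 1.42.0 on recovered reads were alternatives, and the fits were tested on simulated data. Fold changes understate the change of low genes. Coordinates and exon lengths came from GENCODE M21. The members and gene lists were chosen with earlier results of these data known. Values in every library are given for called members, and other lists by up to 4 called genes with the largest change.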

Additional observations from a re-analysis of the deposited data

Results flagged for a closer look

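Dixon's test was run in 57 groups of 5 libraries (19 members in 3 populations) and marked 4 single libraries; chance marks about 1 in 20 groups. Hoxb6 in TA replicate 5 was 12.5 normalized counts, while the other TA libraries lay between 57.2 and 105. Hoxd10 in D replicate 5 was 3.63, while the others lay between 59.0 and 158. Hoxb8 in EVP replicate 2 was 0, with the others between 4 and 7.02, values close to the 3-read limit of detection. Hoxc11 in D replicate 4 was 1.5, which is 2 reads, and the others were at 0.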

How the results depend on the processing

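Between EVP and D the count of 18 called Hox genes ran from 13 (a minimum log2 fold change of 1) to 24 (array weights). The share of all genes called in these fits was 8.34% and 29.8%. edgeR called 16 members (15.1% of all genes) and DESeq2 20 (21.7%). Leaving out 1 library gave 17 to 21, with 15.8% to 21% of all genes. Of 522 fits of the 18 genes (29 alternatives), 509 kept the call, 13 lost it and 0 changed direction; edgeR, quantile normalization and subtraction of the olfactory receptor background lost Hoxa11 and Hoxc5, and the last also Hoxd8. Between EVP and TA, where 0 were called, a pseudocount of 8 gave 1 (Hoxc9), DESeq2 gave 2 (Hoxa7, Hoxb7), and leaving out 1 library gave 0 to 2, the 2 without TA replicate 5. The shares of all genes were 4.56% with the pseudocount of 8, 7.44% in DESeq2 and 4.66% without TA replicate 5. Between TA and D, where 13 were called, quantile normalization gave 7 (3 higher in TA and 4 higher in D) and edgeR 8. A minimum log2 fold change of 1 gave 7 and background subtraction 7. In the same order the shares of all genes were 8.29%, 10.1%, 3.47% and 8.83%. Quantile normalization lost 6 Hoxc genes and background subtraction 5. Leaving out 1 library gave 10 to 15, with 9.25% to 16.5% of all genes. Of 377 fits of these 13 genes 332 kept the call and 45 lost it, and Hoxc6 alone was called in each. The cause of these differences was not tested. A limit of 10 reads left 12 members, not 19, detected in all 5 TA libraries. A limit above the olfactory receptor background, chosen after seeing the data, left 6 of 19 in EVP. Leaving out 1 library gave 19 to 22 members detected in all libraries of EVP, 19 to 21 of TA and 17 to 20 of D. Without replicate 1 of every population the counts of called members were 21, 0 and 15, beside 25.8%, 2.68% and 22.6% of all genes.

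Replicate numbers are shared by the populations in the labels, which say nothing of pairing. Correlations of the deviations of same-numbered libraries ran from -0.136 to 0.689, and were above 0.1 in all 3 pairs of populations for replicates 1, 4 and 5 but not for 2 and 3. As not every correlation passed 0.1, the numbers were not taken as pairs, although 12 of 15 libraries correlated best with their own number. With a replicate block 21, 0 and 14 members were called, with Hoxa5, Hoxb9 and Hoxc13 added between EVP and D and Hoxd8 between TA and D. In that fit 22.3%, 4.94% and 15.8% of all genes were called.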
